A study of Danio rerio with 11 samples.

Results

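The solute carrier genes of the zebrafish array were described in livers of larvae that had lost ahcy or received azacytidine. A gene counted as a member when its symbol in the array's annotation began with slc and a digit, or with slco. This gave 128 genes of the 7792 named genes on the array, measured by 141 probe sets. For the 11 members with more than 1 probe set, the brightest on average across the 11 arrays was used. Members were grouped by the main substrates of their family into 13 classes, from 24 mitochondrial carriers and 20 carriers of amino acids and peptides down to a single urea carrier. One member, slc7a6os, is named for its place beside a carrier gene and is not a transporter itself, so it stood apart from the 127 transporter genes.

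Livers were taken out with forceps from larvae of Danio rerio 4 days after fertilisation, and total RNA was hybridised to 1-colour arrays, 1 array per sample. Controls were ahcy +/+ larvae given vehicle (4 arrays, numbered 1, 2, 4 and 8), and the azacytidine group was ahcy +/+ larvae whose yolk was injected at 2 days with 1 mM azacytidine (4 arrays, numbered 1, 2, 5 and 6). Azacytidine is a cytidine analogue that is built into nucleic acids and traps DNA methyltransferases. The mutants were ahcy -/- larvae labelled as given vehicle (3 arrays, numbered 3, 4 and 6). The gene ahcy encodes adenosylhomocysteinase, which removes S-adenosylhomocysteine, the product and inhibitor of methylation by S-adenosylmethionine. The labels do not give the lesion in ahcy, the number of livers behind a sample, or whether samples came from separate clutches, so p-values reflect the spread among these arrays alone, and part of it may be technical. All arrays carried RNA that had been amplified in 2 rounds.

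Solute carriers are membrane proteins that move small molecules along or against their gradients, alone, by exchange, or coupled to ions. In liver they take up amino acids, carboxylates, organic anions and metals from the blood, and release glucose. Within the cell they connect the cytosol with mitochondria, the Golgi, the endoplasmic reticulum and vesicles. Families are numbered by sequence similarity, and members of a family often share a kind of substrate but differ in the membrane and the cell type in which they work.

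Levels are log2 expression values, and differences are log2 differences ± standard error from 1 limma fit over all arrays. A gene was called when its Benjamini-Hochberg adjusted p over all 12784 probe sets of the array was under 0.05. Values of single arrays are listed in the order of the sample numbers given above. Levels of different genes were not compared, since each probe set has its own scale.

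The arrays differed in their content of tissue markers. For 18 hepatocyte markers the mean ranged over 11.77 to 12.01 in controls, 12.16 to 12.42 under azacytidine and 10.07 to 10.83 in mutants. Of these 18 markers 10 fell in mutants and 0 rose, and 1 rose with azacytidine. For example, fabp10a, the liver fatty acid-binding protein, was at 13.31 to 13.53 in controls and at 11.66, 10.25 and 8.60 in mutants. Of 21 skeletal muscle markers 11 rose in mutants, as did 11 of 17 epidermis markers. For 17 neural markers the mean reached 8.14 and 7.28 in controls 4 and 8, but 5.99 and 5.42 in controls 1 and 2. It ranged over 4.96 to 5.43 under azacytidine and 6.54 to 7.38 in mutants. Control 2 had a mean of 9.82 over 14 exocrine pancreas markers, and no other array exceeded 7.44. The difference between the 3′ and 5′ control probe sets of the muscle actin gene acta1 was 5.59 to 6.21 in mutants, 3.16 to 4.92 in controls and 1.88 to 4.02 with azacytidine. It grows with RNA degradation and short amplification products, but may also vary with muscle RNA. The mean of the 21 muscle markers was 9.98 to 10.63, 8.34 to 9.29 and 7.73 to 8.42 in the same groups, and RNA quality and muscle content cannot be told apart here. Except where a value below bears on it, the part of these shifts in the differences reported for solute carriers was not tested. In bulk RNA, fewer cells of a type and less RNA per cell cannot be told apart.

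The first comparison set azacytidine against vehicle in ahcy +/+ livers. Among solute carriers 1 gene rose, slc13a5a, and 0 fell, or 0.781% and 0.0% of members. Of all probe sets, 0.399% were called higher and 0.18% lower, 0.579% in all. The gene encodes a sodium-coupled importer of citrate at the plasma membrane, and in mammals its counterpart is mainly a liver gene. Its level was 5.65, 6.26, 5.99 and 5.66 in controls and 8.27, 7.58, 7.79 and 7.84 with azacytidine. Every azacytidine array lay above every control. The difference was 1.98 ± 0.27, or 3.94-fold (limma adjusted p = 0.0063). It stayed between 1.85 and 2.1 and kept its call when any 1 of the 11 arrays was left out. Without controls 4 and 8 together the difference was 1.92 and missed the threshold (adjusted p = 0.067), as it did with the neural marker mean as a covariate, at 1.71 (adjusted p = 0.13). That covariate barely overlapped between the groups, at 5.42 to 8.14 in controls and 4.96 to 5.43 with azacytidine, so this fit hardly separates it from the drug.

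**Figure D1:**
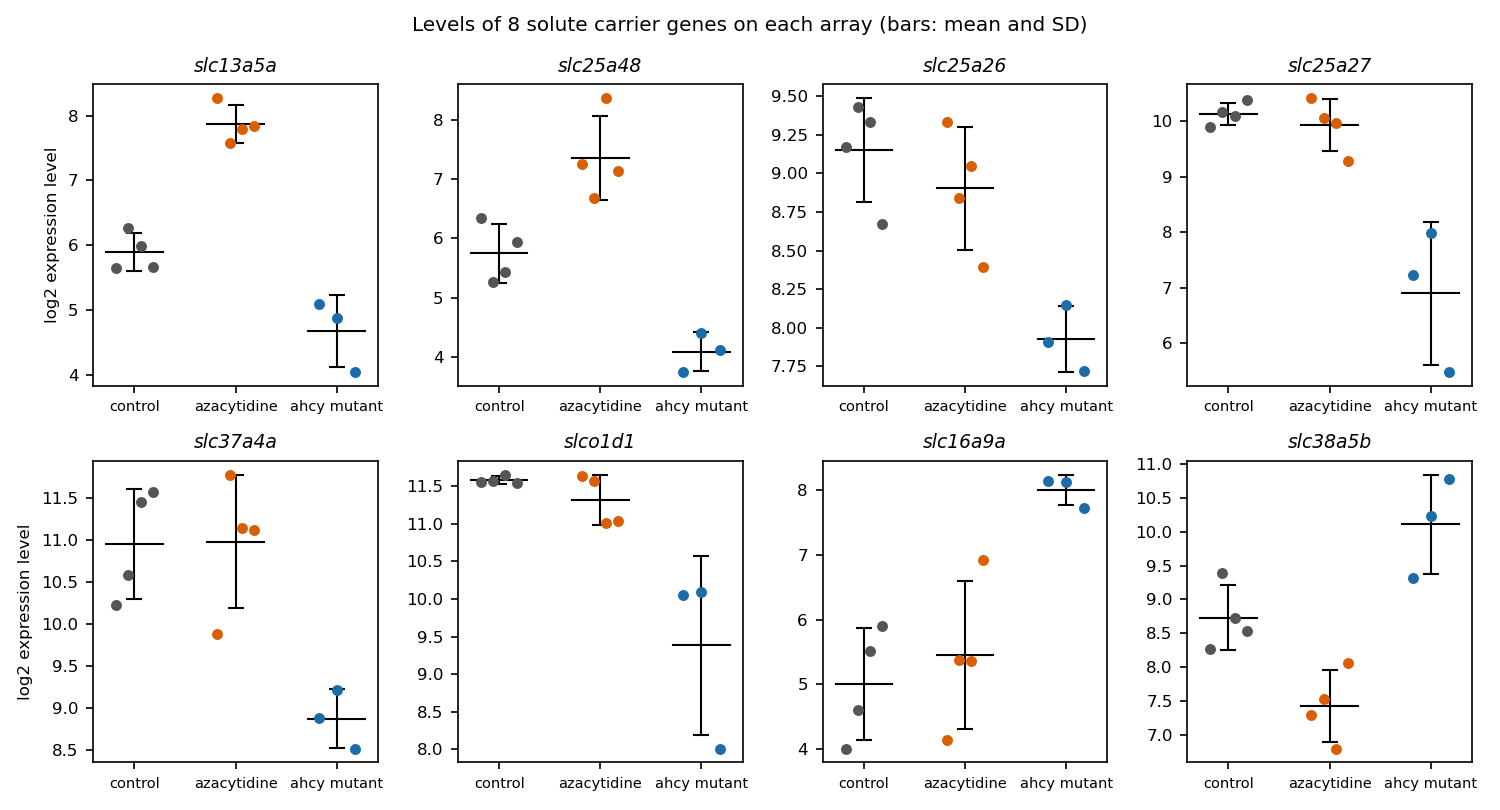
Log2 expression levels (vertical axes, a separate range for each gene) of 8 solute carrier genes on each array of the control (n = 4), azacytidine (n = 4) and ahcy mutant (n = 3) groups. Points are arrays, and bars show the group mean and SD. The azacytidine arrays of slc13a5a, at 7.58 to 8.27, lie above all controls and mutants, and the mutant arrays of slc25a27, slc37a4a and slco1d1 lie below all others.

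Several further carriers shifted with azacytidine without reaching the threshold. At an unadjusted p under 0.05 in the same fit, 8 members were higher and 5 lower, where 5.23% and 9.93% of all probe sets were. The median difference over all members was 0.03, against -0.05 over all probe sets. The second largest positive difference was that of slc25a48, which in mammals carries choline into mitochondria, at 6.35, 5.27, 5.43 and 5.94 in controls and 7.25, 6.69, 8.37 and 7.14 with azacytidine. The groups did not overlap, and the difference of 1.61 ± 0.35 had a limma adjusted p of 0.07. For slc39a7, which releases zinc from the endoplasmic reticulum and Golgi, levels were 7.26, 6.98, 7.30 and 6.91 in controls and 8.36, 8.30, 8.16 and 7.87 with azacytidine. These groups did not overlap either, at a difference of 1.06 ± 0.25 (adjusted p = 0.085), which passed only under array weights (adjusted p = 0.033). On the lower side, slc38a5b, a glutamine and neutral amino acid transporter, was at 8.27, 9.39, 8.72 and 8.53 in controls and 7.29, 7.54, 6.80 and 8.07 with azacytidine, a difference of -1.30 ± 0.37 (adjusted p = 0.13). In total 6 members lay wholly above and 4 wholly below the controls, or 4.69% and 3.12% of members, where 3.71% and 5.26% of all probe sets did.

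Mutants against controls asked what the loss of ahcy changed. Of the 128 solute carriers 5 rose and 12 fell, or 3.91% and 9.38%, where 6.23% of all probe sets were called higher and 5.87% lower. The falls were spread over mitochondrial carriers (5 of 24), metal carriers (2 of 16) and 1 gene each among carriers of amino acids, sugars, carboxylates, organic anions and neurotransmitters. The rises were in 2 amino acid carriers, 1 monocarboxylate carrier, the urea carrier and the Golgi carrier of activated sulfate. The median difference was 0.11, against 0.08 over all probe sets. At an unadjusted p under 0.05 in the same fit, 15 members were higher and 15 lower (15.2% and 11.3% of all probe sets), and 12 lay wholly above and 16 wholly below the controls (12% and 10.6% of all probe sets). With array medians subtracted, which moved the median of all probe sets by -0.12, 3 members were higher and 13 lower, so that the share of higher calls was 18.8% in place of 29.4%. The calls over all probe sets moved too, from 797 higher and 750 lower to 618 and 890, and to 674 and 786 with cyclic loess. The counts leaned on single arrays. Calls of lower level numbered 7 without control 2 and 4 without mutant 6, and calls of higher level numbered 3 without azacytidine array 2 and 2 each without mutant 4 and mutant 6. Without controls 4 and 8 together, 12 members were higher and 7 lower. With the neural marker mean as a covariate, 4 members were higher and 11 lower, all of them called without it too. The calls of slc25a16 and slc38a5b were lost in that fit (adjusted p = 0.06 and 0.052). This covariate overlapped between the groups, at 5.42 to 8.14 in controls and 6.54 to 7.38 in mutants. Calls that held in every fit with 1 array left out were those of 6 genes: slc25a27, slc37a4a, slco1d1, slc31a1, slc16a9a and slc35b2.

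**Figure D2:**
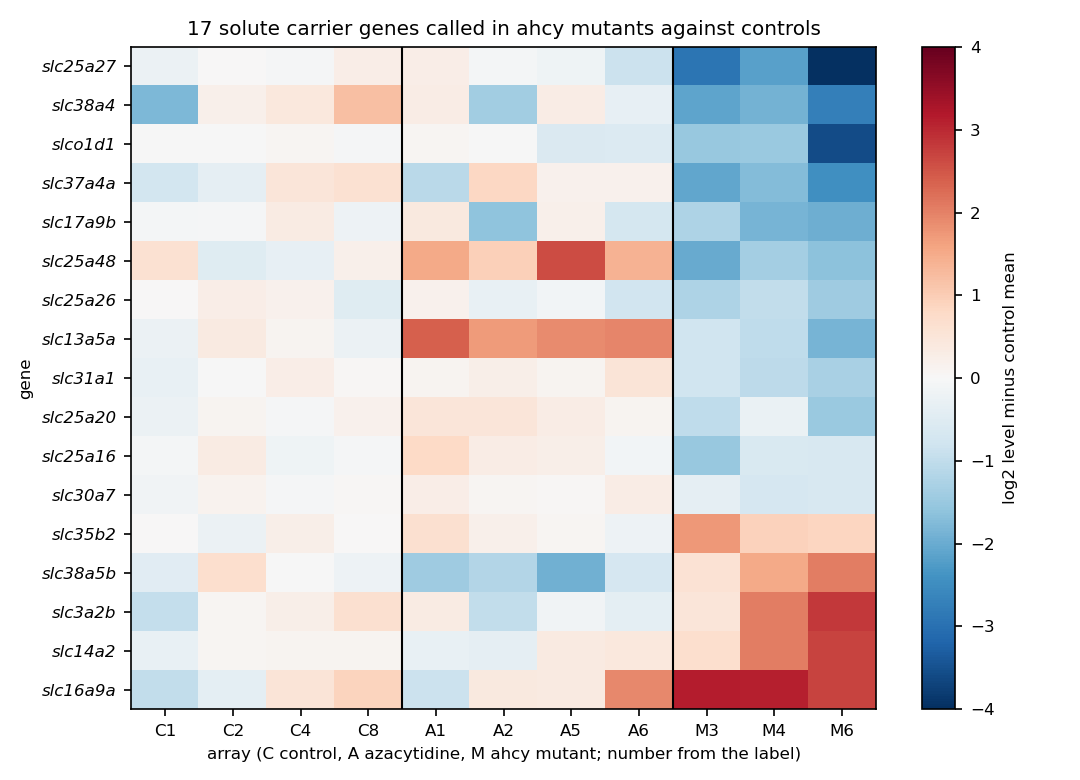
Level of the 17 solute carrier genes called in mutants against controls, as the log2 difference of each array (columns; C control, A azacytidine, M ahcy mutant, with the sample number) from the control mean of that gene (rows). The colour scale runs from -4 to 4. The 12 genes called lower are blue in the 3 mutant columns, the 5 called higher are red there, and slc13a5a and slc25a48 are red in the azacytidine columns.

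Mutants against azacytidine tested how far the groups differed from each other directly. Of the solute carriers 17 were higher in mutants and 16 lower, or 13.3% and 12.5%, where 18.2% of all probe sets were called higher and 11.1% lower. The median difference was 0.06, against 0.14 over all probe sets. At an unadjusted p under 0.05 in the same fit, 24 members were higher and 19 lower (25.3% and 15.1% of all probe sets), and 23 lay wholly above and 16 wholly below the azacytidine arrays (23.5% and 13.8% of all probe sets). This comparison shares its azacytidine arrays with the first and its mutant arrays with the second, so the counts are not separate evidence. With array medians subtracted, which moved the median of all probe sets by -0.22, the calls were 14 higher and 20 lower, so that 41.2% in place of 51.5% were higher. The calls over all probe sets moved too, from 2329 higher and 1424 lower to 1629 and 2068. With cyclic loess they were 1839 and 1854. The shares of all probe sets given for this comparison are those before such scaling. Without mutant 6 they were 9 higher and 10 lower. With the neural marker mean as a covariate, 1 member was higher (slc38a5b) and 5 were lower (slc13a5a, slc25a27, slc25a48, slc31a1 and slc37a4a), all of them called without it too. Every other call of this comparison named below was lost in that fit. The covariate did not overlap between the groups compared, at 4.96 to 5.43 with azacytidine and 6.54 to 7.38 in mutants. The fit therefore cannot separate the covariate from the group. Calls were lost where the difference hardly moved (slc25a20, -1.265 and -1.25 with the covariate) and where it shrank (slc1a2b, 3.39 and 0.47).

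**Figure D3:**
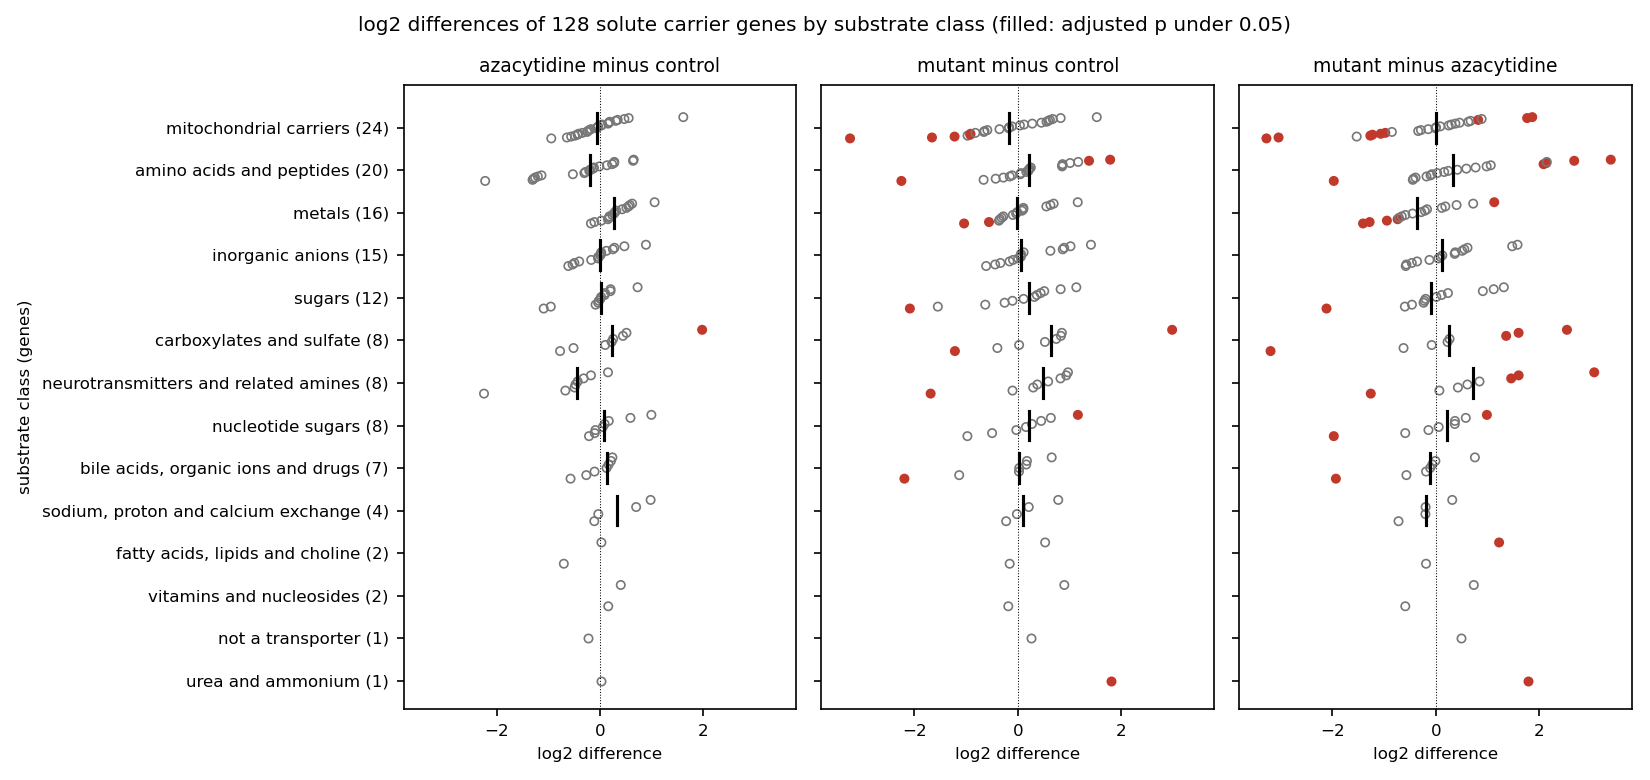
Log2 differences (horizontal axes) of the 128 solute carrier genes by substrate class (rows, number of genes in brackets) in the 3 comparisons. Each point is a gene, filled where its adjusted p was under 0.05, and the vertical bar is the median of classes with more than 2 genes. With azacytidine 1 point is filled, in mutants 5 filled points of mitochondrial carriers lie left of 0, and the metal carriers lie mostly right of 0 with azacytidine.

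Most carriers of the SLC25 family pass metabolites through the inner mitochondrial membrane, which is otherwise tight. The class of mitochondrial carriers follows family numbers, so it includes the peroxisomal carrier slc25a17. Of the 24 members under slc25 symbols 5 fell in mutants against controls and 0 rose. Of all probe sets 5.87% were called lower and 6.23% higher. The class median was -0.17, against 0.08 over all probe sets. With array medians subtracted 6 fell and with cyclic loess 5, and without controls 4 and 8 3 fell. With azacytidine 0 passed the test, where 0.579% of all probe sets did. Against azacytidine, 3 were higher in mutants and 6 lower, where 18.2% and 11.1% of all probe sets were. Genes of the family under other symbols are outside these counts. Among them, the uncoupling protein genes ucp2 and ucp3 rose in mutants against controls, by 1.76 ± 0.43 (adjusted p = 0.0199) and 2.61 ± 0.62 (adjusted p = 0.0178). In the same comparison mtch2 fell (-0.80 ± 0.24, adjusted p = 0.0463) and ucp1 did not pass (-1.22 ± 0.59, adjusted p = 0.22).

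The deepest fall among all members was that of slc25a27, of the uncoupling protein group, whose mammalian counterpart UCP4 is known from brain. Its level was 9.90, 10.17, 10.10 and 10.39 in controls, 10.42, 10.06, 9.97 and 9.29 with azacytidine, and 7.23, 7.98 and 5.47 in mutants. The mutant arrays lay far below both other groups, with mutant 6 lowest. The difference of -3.25 ± 0.48 corresponds to a 9.49-fold lower level (limma adjusted p = 0.00151) and ranged from -3.79 to -2.53 when 1 array was left out. For slc25a26, levels were 9.17, 9.43, 9.33 and 8.67 in controls, 9.33, 8.84, 9.05 and 8.39 with azacytidine, and 7.91, 8.15 and 7.72 in mutants. In mammals and yeast this carrier brings S-adenosylmethionine into mitochondria in exchange for S-adenosylhomocysteine, the substrate of the enzyme that the mutants lack. Mutants did not overlap with either group, and the level fell by 1.22 ± 0.28 (adjusted p = 0.0156). Without mutant 6 the difference was -1.12 and missed the threshold (adjusted p = 0.067). The hepatocyte marker mean was lowest on the same 3 mutant arrays, and its part in these falls was not tested.

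The putative choline carrier slc25a48 was at 3.74, 4.40 and 4.12 in mutants, below the lowest control at 5.27. It fell by 1.66 ± 0.38 (adjusted p = 0.0157), and the difference missed the threshold without mutant 3, at -1.49 (adjusted p = 0.05), or without mutant 6, at -1.68 (adjusted p = 0.054). Directly against azacytidine, the difference was -3.28 ± 0.38 (adjusted p = 0.000164), a call that held without any 1 array. Mutants 3 and 6 lay below the 10th percentile of their arrays. With those levels set at it, the differences were -1.30 from controls and -2.91 from azacytidine, the latter a 7.53-fold lower level. The carnitine-acylcarnitine carrier slc25a20, which brings fatty acids into mitochondria for oxidation, was at 10.76, 11.10, 10.96 and 11.18 in controls and 9.97, 10.74 and 9.53 in mutants. All mutants lay below all controls, mutant 4 by little, and the fall of 0.92 ± 0.25 (adjusted p = 0.0315) missed the threshold without control 2, control 8, mutant 3 or mutant 6, where it ranged from -0.89 to -0.65, and without controls 4 and 8 together (-0.85). For slc25a16, all mutant levels (3.26 to 4.16) were below the 10th percentile of their arrays, so the fall of 0.92 ± 0.27 (adjusted p = 0.0474) rests on a dim group. With levels under that percentile set at it, the difference was -0.32. That call was lost in 9 of 11 fits with 1 array left out, where the difference ranged from -1.07 to -0.62.

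Other mitochondrial carriers were higher in mutants than with azacytidine without a call against controls. The ADP/ATP exchanger slc25a4 was at 5.51, 7.85, 7.92 and 7.39 in controls, 7.49, 7.05, 5.61 and 7.16 with azacytidine, and 7.97, 8.83 and 9.29 in mutants. Each mutant array was above all others, and the difference from azacytidine was 1.87 ± 0.61 (adjusted p = 0.0367), against 1.53 from controls (adjusted p = 0.13). In mammals slc25a4 is the form of heart and skeletal muscle, and the mean of 21 muscle markers was 9.98 to 10.6 in mutants, 8.34 to 9.29 in controls and 7.73 to 8.42 with azacytidine. That call was lost without azacytidine arrays 2 or 5 or mutants 4 or 6, at 1.46 to 1.94, with array medians subtracted, at 1.65 (adjusted p = 0.054), and with the neural covariate, at 1.20 (adjusted p = 0.48). The pyrimidine nucleotide carrier slc25a33 differed by 1.77 ± 0.50 (adjusted p = 0.0202) between mutants and azacytidine, and by 1.54 without mutant 3, which missed the threshold (adjusted p = 0.075). The peroxisomal carrier slc25a17 was lower in mutants than with azacytidine, by 1.06 ± 0.37 (adjusted p = 0.0481), but this call was lost in 8 of 11 fits with 1 array left out, at values from -1.15 to -0.97. The phosphate carrier slc25a3b, which feeds ATP synthesis, was steady, with group means of 11.71 ± 0.09 (SD, n = 4) in controls, 11.68 ± 0.10 (SD, n = 4) with azacytidine and 11.53 ± 0.14 (SD, n = 3) in mutants.

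Carriers of carboxylates and sulfate (8 genes) held the largest rise in mutants and the only call with azacytidine. The citrate importer slc13a5a, higher with azacytidine, was at 5.10, 4.88 and 4.04 in mutants, below all controls. Its fall of 1.22 ± 0.29 (adjusted p = 0.0185) missed the threshold without control 2, at -1.09 (adjusted p = 0.053), or mutant 6, at -0.90 (adjusted p = 0.092). The direct difference between mutants and azacytidine was -3.20 ± 0.29, or 9.17-fold (adjusted p = 3.37e-05), and held without any 1 array. The 2 comparisons with control share the control arrays, and the direct comparison does not use their levels except for the common estimate of spread.

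The monocarboxylate carrier gene slc16a9a, whose mammalian counterpart carries carnitine and urate, was at 4.01, 4.60, 5.51 and 5.9 in controls, 4.15, 5.38, 5.36 and 6.92 with azacytidine, and 8.14, 8.12 and 7.72 in mutants. The mutant arrays lay close together above all others. The rise was 2.99 ± 0.57, or 7.94-fold (adjusted p = 0.00627), and between 2.66 and 3.29 when 1 array was left out. Its paralogue slc16a9b was at 4.77, 4.66, 5.84 and 6.06 in controls, 4.55, 4.82, 5.28 and 4.64 with azacytidine, and 6.40, 5.76 and 6.40 in mutants. It passed the test only between mutants and azacytidine (1.36 ± 0.36, adjusted p = 0.0141), and not without mutant 6 (1.26, adjusted p = 0.057) or with the neural marker mean as a covariate (0.48, adjusted p = 0.54). Its high controls were 4 and 8, those with the high neural marker means. The lactate exporter slc16a3b followed the same order of groups, with 6.12 ± 0.69 (SD, n = 4), 5.34 ± 0.32 (SD, n = 4) and 6.95 ± 0.79 (SD, n = 3). It was 1.60 ± 0.41 higher in mutants than with azacytidine (adjusted p = 0.0133), and 1.16 without mutant 3, where it missed the threshold (adjusted p = 0.051). With the neural covariate it was 0.98 (adjusted p = 0.35). Differences of all 5 SLC16 genes from controls were positive in mutants, 1 of them called, and 4 of 5 were positive with array medians subtracted or cyclic loess. Of all 12784 probe sets 7268 were positive.

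Among 20 carriers of amino acids and peptides, 2 rose and 1 fell in mutants against controls, where 6.23% and 5.87% of all probe sets did. With array medians subtracted 0 rose and 1 fell. The liver system A transporter slc38a4, which takes up neutral amino acids with sodium, was at 8.89, 10.90, 11.12 and 11.90 in controls, 11, 9.31, 11 and 10.38 with azacytidine, and 8.58, 8.80 and 7.97 in mutants. Control 1 lay close to the mutants, and the other controls far above. The fall of 2.25 ± 0.61 (adjusted p = 0.033) missed the threshold without control 2, 4 or 8 or any mutant array, where it ranged from -2.43 to -1.85. Without controls 4 and 8 together it was -1.44 (adjusted p = 0.14). Its relative slc38a5b moved the other way, with 9.32, 10.23 and 10.77 in mutants against 8.27 to 9.39 in controls. Mutant 3 lay just under control 2, and the rise of 1.38 ± 0.40 (adjusted p = 0.0442) was lost in 7 of 11 fits with 1 array left out, at 1.05 to 1.38, with array medians subtracted (1.26) and without controls 4 and 8 (1.28). Against azacytidine, with levels from 6.80 to 8.07, the difference of 2.68 ± 0.40, or 6.42-fold (adjusted p = 0.000741), held without any 1 array. In mammals SLC38A5 is also strong in pancreas. The mean of 14 exocrine pancreas markers was highest in control 2, the highest control of this gene, and was 5.10 to 6.18 in mutants.

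The heavy chain of the CD98 amino acid exchangers, slc3a2b, was at 4.47, 5.50, 5.66 and 6.07 in controls and 5.92, 7.47 and 8.25 in mutants. Mutant 3 lay within the control range. The rise of 1.79 ± 0.52 (adjusted p = 0.0443) was lost in 8 of 11 fits with 1 array left out, among them those without mutant 4 (1.66) and mutant 6 (1.27). It was also lost with array medians subtracted (1.67) and with cyclic loess (1.66). The other copy, slc3a2a, did not pass any test and ranged from 5.50 to 8.65 in controls and from 5.46 to 8.65 with azacytidine. A light chain partner of CD98, slc7a8a (LAT2), was at 9.93, 9.69 and 10.89 in mutants and 7.27, 7.85, 6.64 and 10.35 with azacytidine. Azacytidine array 6 lay within the mutant range. The difference of 2.14 ± 0.72 (adjusted p = 0.0432) was lost in 8 of 11 such fits, at values from 1.68 to 2.38, and with array medians subtracted (1.92, adjusted p = 0.063). A dimmer probe set of slc7a8a gave a smaller difference of 0.76 ± 0.27 (adjusted p = 0.0494).

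The sugar carrier class (12 genes) follows family numbers, and its SLC5 genes slc5a6b, slc5a8l and slc5a12 may carry other substrates. In this class 1 gene passed a test against controls, in mutants, where 12.1% of all probe sets were called either way. The glucose-6-phosphate carrier of the endoplasmic reticulum, slc37a4a, supplies the last step of glucose release by the liver. It was at 10.22, 10.58, 11.45 and 11.57 in controls, 9.88, 11.78, 11.14 and 11.12 with azacytidine, and 8.88, 9.21 and 8.51 in mutants. All mutants lay below all other arrays. The level fell by 2.09 ± 0.43, or 4.25-fold (adjusted p = 0.00932), with differences from -2.33 to -1.88 when 1 array was left out. A dimmer probe set of the same gene gave -0.91 ± 1.16 (adjusted p = 0.68), and the mean of both gave -1.50 (adjusted p = 0.064). The paralogue slc37a4b had 5.25 ± 0.99 (SD, n = 3) in mutants and 4.88 ± 1.20 (SD, n = 4) in controls. The glucose transporter slc2a3a was below all controls in mutants, at 5.72, 5.29 and 5.82 against 6.18 to 8.34, but the controls spread widely and the difference of -1.55 ± 0.85 did not pass (adjusted p = 0.28). For slc5a6b, a sodium-coupled vitamin transporter by its mammalian counterpart, mutants lay at 4.91 to 5.06 and controls at 5.35 to 6.0, without overlap (-0.63 ± 0.22, adjusted p = 0.08).

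The class of bile acid, organic ion and drug carriers held 7 genes, of which 1 fell in mutants against controls, where 5.87% of all probe sets did. The organic anion transporter slco1d1 was at 11.55, 11.57, 11.65 and 11.54 in controls, 11.64, 11.57, 11.01 and 11.04 with azacytidine, and 10.05, 10.09 and 8.01 in mutants. Controls lay close together, while mutant 6 stood far below the other mutants. The difference was -2.19 ± 0.41, or 4.58-fold (adjusted p = 0.00543), and -1.51 without mutant 6, still past the threshold. Its relative slco1f1 was at 6.74, 6.52, 6.09 and 6.48 in controls and 5.97, 4.88 and 5.12 in mutants, without overlap. The difference of -1.13 ± 0.37 (adjusted p = 0.068) passed in 4 of 25 alternatives: without azacytidine array 5 (-1.13), without mutant 3 (-1.46), with cyclic loess (-1.26, adjusted p = 0.048) and with array weights (-1.34, adjusted p = 0.033). The organic cation transporter slc22a2 gave opposite results from its probe sets. The one with the highest mean was 0.76 ± 0.35 higher in mutants than with azacytidine (adjusted p = 0.12), and the other gave a difference of -1.77 ± 0.30 (adjusted p = 0.00141).

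Metal carriers (16 genes) had 0 calls with azacytidine in limma, where 0.579% of all probe sets were called. At an unadjusted p under 0.05, 2 were higher and 0 lower, where 5.23% and 9.93% of all probe sets were. Of their differences from control 14 were positive and 2 negative, with a median of 0.28 and the largest at 1.06. Over all 12784 probe sets 5539 were positive and the median was -0.05. The split was the same with array medians subtracted and with cyclic loess, 13 to 3 without controls 4 and 8, and 12 to 4 with the neural covariate. In mutants against controls 2 fell and 0 rose, where 5.87% and 6.23% of all probe sets did. Of the 16 differences 7 were positive, where 7268 of all 12784 probe sets were. The copper importer slc31a1 was at 10.58, 10.87, 11.16 and 10.92 in controls, 10.99, 11.13, 10.98 and 11.39 with azacytidine, and 10.08, 9.85 and 9.60 in mutants. All mutants lay below both other groups, and the fall was 1.04 ± 0.19, or 2.06-fold (adjusted p = 0.00459), at -1.16 to -0.92 when 1 array was left out. A second probe set of slc31a1 gave -1.20 ± 0.51 (adjusted p = 0.15).

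Most zinc carriers of the SLC30 family move zinc out of the cytosol, into vesicles, the Golgi or out of the cell. All 5 measured members were positive with azacytidine against controls and all 5 negative in mutants, with medians of 0.43 and -0.28. Of all 12784 probe sets 5539 were positive with azacytidine and 5514 negative in mutants. Of the 18 hepatocyte markers 15 were positive with azacytidine and 17 negative in mutants. The comparisons share their controls. Of the SLC30 differences from control 1 passed, in mutants, where 5.87% of all probe sets were called lower. It was that of slc30a7, which loads zinc into the Golgi, at 10.73, 11, 10.82 and 10.93 in controls and 10.51, 10.21 and 10.22 in mutants. Mutants lay below all controls by a small margin. The fall of 0.56 ± 0.15 (adjusted p = 0.0327) was lost in 5 of 11 fits with 1 array left out, at -0.56 to -0.50, with cyclic loess, at -0.45, and without controls 4 and 8, at -0.55. Directly between mutants and azacytidine the signs of all 5 were negative, which follows from the signs above and is not a further result. In that comparison 11.1% of all probe sets were called lower, and 2 SLC30 genes passed, slc30a7 (-0.74 ± 0.15, adjusted p = 0.00408) and slc30a9 (-0.94 ± 0.25, adjusted p = 0.0139). The second missed the threshold without mutant 6, at -0.73.

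SLC39 carriers move zinc into the cytosol, opposite to most of SLC30. Of 6 members 5 were positive with azacytidine, where 5539 of all 12784 probe sets were. Between mutants and azacytidine 11.1% of all probe sets were called lower, and 1 of the 6 members was. That was slc39a7, at 6.44, 7.35 and 6.51 in mutants, with a difference of -1.41 ± 0.27 (adjusted p = 0.00325) that held without any 1 array. Its other probe set gave -0.76 ± 0.22 (adjusted p = 0.0214). For slc39a9, a zinc carrier of the secretory pathway, the probe sets disagreed. The brighter one did not pass with azacytidine (0.56 ± 0.26, adjusted p = 0.34), whereas the other rose by 1.02 ± 0.19 (adjusted p = 0.0341). Between mutants and azacytidine the brighter one gave -0.45 ± 0.28 (adjusted p = 0.25) and the other -1.63 ± 0.20 (adjusted p = 0.000222). The iron exporter ferroportin, slc40a1, was at 7.01, 7.25 and 7.83 in mutants, above all controls (5.52 to 6.98). Its difference from control of 1.16 ± 0.39 did not pass (adjusted p = 0.074), except without control 1 (1.42, adjusted p = 0.041) and under array weights. Against azacytidine it passed at 1.13 ± 0.39 (adjusted p = 0.0457), a call lost in 7 of 11 fits with 1 array left out, at 0.90 to 1.31. It was also lost with array medians subtracted (0.92, adjusted p = 0.099), with cyclic loess (0.97, adjusted p = 0.087) and without controls 4 and 8.

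The SLC35 family (8 genes) mostly carries nucleotide sugars into the Golgi and endoplasmic reticulum. Its 1 call against control was a rise in mutants, where 6.23% of all probe sets were called higher. The gene, slc35b2, carries the activated sulfate donor PAPS into the Golgi. Levels were 5.12, 4.88, 5.35 and 5.13 in controls, 5.75, 5.31, 5.2 and 4.91 with azacytidine, and 6.85, 6.03 and 5.97 in mutants. All mutants exceeded all other arrays. The rise was 1.16 ± 0.26, or 2.24-fold (adjusted p = 0.0147), and between 0.88 and 1.32 when 1 array was left out. The member slc35h1 was 1.97 ± 0.57 lower in mutants than with azacytidine (adjusted p = 0.0228), but not without azacytidine array 1 or mutants 4 or 6, at -1.89 to -1.65. With the neural covariate its difference was -0.69 (adjusted p = 0.62). One SLC35 gene, slc35f2, stayed below the 10th percentile of every array.

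The urea carrier slc14a2 was at 3.18, 3.57, 3.61 and 3.59 in controls, 3.18, 3.12, 3.84 and 3.92 with azacytidine, and 4.16, 5.54 and 6.19 in mutants. In controls and with azacytidine every level was below the 10th percentile of its array, as was that of mutant 3. The rise of 1.81 ± 0.40 (adjusted p = 0.0128) was 1.08 with all these levels, mutant 3 included, set at the percentile of their arrays. It missed the threshold without mutant 4 (1.69, adjusted p = 0.053) or mutant 6 (1.36, adjusted p = 0.061).

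Carriers of neurotransmitters and related amines (8 genes) included genes of neurons, whose levels are given beside the neural markers. With azacytidine 7 of 8 differences from control were negative, with a median of -0.45, and 0 passed. Of all 12784 probe sets 7225 were negative and 0.579% were called. The class follows family numbers, so its SLC6 genes include slc6a19a.1 and slc6a19b, which are related to carriers of neutral amino acids. In mutants against controls 1 of the 8 genes fell, where 5.87% of all probe sets were called lower. Against azacytidine 3 were higher and 1 lower, where 18.2% and 11.1% of all probe sets were. The vesicular GABA and glycine transporter slc32a1 was at 3.13, 3.40, 7.14 and 6.61 in controls, 2.50, 2.96, 2.68 and 3.17 with azacytidine, and 4.55, 6.47 and 6.67 in mutants. Controls 4 and 8, which had the highest neural marker means of the group, were also the high controls of this gene. Mutants exceeded azacytidine by 3.07 ± 0.90 (adjusted p = 0.0237), or by 1.68 with the dim azacytidine levels set at the 10th percentile. This call was lost without azacytidine arrays 1 or 5 or mutants 4 or 6, at 2.68 to 3.02.

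The glial glutamate importer slc1a2b, counted among amino acid carriers, showed the same order, with 6.50, 5.83, 10.41 and 8.61 in controls, 5.62, 5.72, 5.60 and 5.53 with azacytidine, and 8.49, 8.92 and 9.61 in mutants. Controls spanned a wider range than both other groups together. Mutants exceeded azacytidine by 3.39 ± 0.84, or 10.5-fold (adjusted p = 0.0109), without a loss of the call in any fit with 1 array left out. The difference from controls of 1.17 ± 0.84 did not pass (adjusted p = 0.42), but was 2.03 without control 4 (adjusted p = 0.04). Without controls 4 and 8 together it was 2.84 (adjusted p = 0.0017). The vesicular acetylcholine transporter slc18a3a and the neuronal vesicle carrier slc6a17 were higher in mutants than with azacytidine by 1.61 ± 0.49 (adjusted p = 0.0287) and 1.46 ± 0.44 (adjusted p = 0.0259). Each call was lost in some fits with 1 array left out, the first without azacytidine arrays 1, 2 or 5 or mutants 4 or 6 (1.44 to 1.65), the second without azacytidine arrays 1 or 2 or mutant 3 (0.99 to 1.40). With the neural marker mean as a covariate the differences between mutants and azacytidine were 0.47 for slc1a2b, 0.07 for slc32a1, 0.47 for slc18a3a and 0.67 for slc6a17, and none of these 4 passed (adjusted p = 0.51, 0.96, 0.70 and 0.56). The covariate did not overlap between these groups, so this fit cannot separate it from the group. The vesicular nucleotide transporter slc17a9b did not follow that order. It was at 6.45, 6.50, 6.86 and 6.35 in controls and 5.29, 4.69 and 4.58 in mutants, without overlap. The fall of 1.69 ± 0.41 (adjusted p = 0.02) missed the threshold without mutant 4 (-1.60) or mutant 6 (-1.55), or without controls 4 and 8 together (-1.62).

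**Figure D4:**
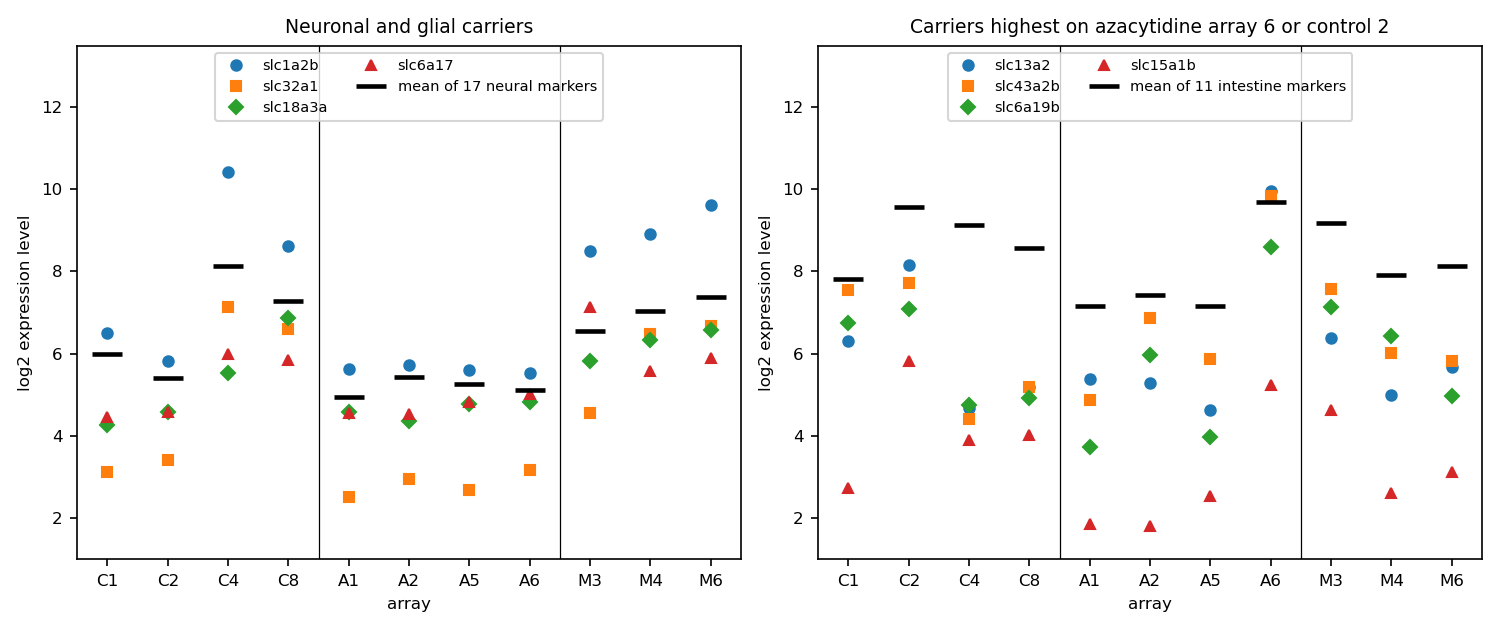
Log2 levels (vertical axes) of 4 neuronal and glial carriers (left) and 4 carriers that were highest on azacytidine array 6 or control 2 (right) on each array (horizontal axes; C control, A azacytidine, M ahcy mutant), with the mean of 17 neural or 11 intestine markers as black bars. Points are single arrays, to be compared within a gene. On the left, controls 4 and 8 and the mutants stand above the azacytidine arrays, and on the right azacytidine array 6 stands apart, at 9.96 for slc13a2.

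The class of inorganic anion carriers (15 genes) had 0 calls in all 3 comparisons in limma. Of all probe sets 0.579% were called with azacytidine, 12.1% in mutants against controls and 29.4% in mutants against azacytidine. At an unadjusted p under 0.05, 1 was higher with azacytidine, where 5.23% of all probe sets were. In mutants against controls 0 changed, where 15.2% of all probe sets were higher and 11.3% lower. In mutants against azacytidine 1 was higher and 1 lower, where 25.3% and 15.1% of all probe sets were. With array medians subtracted or cyclic loess 1 was called lower in the last comparison. The largest difference in mutants against controls was that of slc26a5, of the anion exchanger family, at 9.49, 9.02 and 8.36 against 5.97 to 8.35 in controls. The mutants lay just above the highest control, and 1.42 ± 0.73 did not pass (adjusted p = 0.24). The anion exchanger 1 gene slc4a1a, known from red cells, was at 6.49 ± 0.49 (SD, n = 4) with azacytidine, 6.61 ± 0.93 (SD, n = 3) in mutants and 5.59 ± 0.80 (SD, n = 4) in controls, and passed in neither comparison (adjusted p = 0.38 and 0.21). The 4 exchangers of sodium, protons and calcium had 0 calls either. At an unadjusted p under 0.05 in limma, 1 of them was higher with azacytidine, slc9a8 (0.70 ± 0.32, adjusted p = 0.32). Of the 2 fatty acid transporter genes, slc27a1a was higher in mutants than with azacytidine by 1.23 ± 0.31 (adjusted p = 0.0127), with 8.23, 7.08 and 7.04 against 6.57, 6.03, 6.30 and 5.99. The groups did not overlap, and the call held without any 1 array. The 2 carriers of vitamins and nucleosides were dim, with group means between 3.12 and 4.36, and passed no test.

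Some carriers varied more within groups than between them. The pooled within-group SD had a median of 0.52 over all members and ranged from 0.10 to 1.81. Its highest value was that of the dicarboxylate carrier slc13a2, at 6.32, 8.16, 4.68 and 5.18 in controls, 5.38, 5.28, 4.63 and 9.96 with azacytidine, and 6.39, 5.0 and 5.68 in mutants. Azacytidine array 6 and control 2 stood out. The neutral amino acid carriers slc43a2b and slc6a19b, the second known as the absorptive transporter of gut and kidney, also peaked on azacytidine array 6, at 9.83 and 8.59, where the other azacytidine arrays lay between 4.88 and 6.86 and between 3.74 and 5.96. The intestinal peptide transporter gene slc15a1b was dim. It lay below the 10th percentile on 6 control and azacytidine arrays and on mutants 4 and 6, so its spread there is uncertain. Its level was 5.24 on azacytidine array 6 and 5.83 in control 2, and between 1.81 and 4.63 on all others. The mean of 11 intestine markers was highest on the same arrays, at 9.70 and 9.56, against 7.16 to 9.17 on the others. Not every array followed it. Control 4 had a marker mean of 9.12, with slc43a2b at 4.42 and slc6a19b at 4.76. Control 1 had a marker mean of 7.82, with slc43a2b at 7.54 and slc6a19b at 6.74. The part of intestinal RNA in these levels was not tested. None of these 4 carriers passed a test between groups.

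Transporters outside the SLC symbols were counted beside the members. Of 25 measured genes of solute carrier families under other symbols, 4 rose and 4 fell in mutants against controls, where 6.23% and 5.87% of all probe sets did. The most significant were svopl, a relative of synaptic vesicle proteins, which rose by 1.67 ± 0.24 (adjusted p = 0.0012), and mfsd6b, which rose by 1.53 ± 0.34 (adjusted p = 0.0139). Against the same background, 5 of 20 ion pump genes rose and 0 fell, among them the sodium pump subunits atp1b1b (1.81 ± 0.37, adjusted p = 0.0091) and atp1a1a.2 (2.93 ± 0.74, adjusted p = 0.0241). Of 8 ABC transporters 2 rose, abcc3 by 0.99 ± 0.23 (adjusted p = 0.0157) and abca12 by 2.27 ± 0.53 (adjusted p = 0.017). In epidermis of mammals abca12 exports lipids, and the mean of 17 epidermis markers was 9.06 to 9.97 in mutants against 7.53 to 8.11 in controls. With azacytidine 0 genes of these lists passed in limma, where 0.579% of all probe sets did. At an unadjusted p under 0.05, 1 solute carrier gene under another symbol was higher and 2 were lower, 7 pumps were lower and 1 ABC transporter was lower, where 5.23% of all probe sets were higher and 9.93% lower. Of the 128 solute carriers themselves, 33 passed in at least 1 of the 3 comparisons and 95 in none. All 33 passed between mutants and azacytidine, 13.3% of members higher and 12.5% lower, where 18.2% and 11.1% of all probe sets were called.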

How the data were processed

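The authors deposited log2 values, 1 for each probe set on each array. The submitters' processing notes name GCRMA and Partek, without versions. GCRMA takes off a background modelled on probe sequence, puts arrays on a common distribution and combines the probes of a set. Levels near background are therefore uncertain, and bright ones may be compressed. The deposited arrays still differed in scale, with medians of 5.97 to 6.14 in controls, 5.89 to 5.97 with azacytidine and 6.13 to 6.17 in mutants. No depth or detection call was used, and the number of arrays limits precision. The table held 12830 probe sets, and 46 array controls were left out. Genes were named from the platform annotation, and 8994 probe sets had 1 symbol, 110 several and 3680 none. Current symbols were matched by gene ID for 128 of 128 members. A further 2 genes are not reported here.

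Group means were fitted with limma 3.58.1 in R 4.3.3 (8 residual degrees of freedom, mean-dependent variance trend, 2-sided tests). Within a comparison, p-values of all 12784 probe sets were adjusted together. The same code was tested on simulated data. Dim levels were bounded at the 10th percentile of their array, an alternative added after seeing the data. Same-numbered arrays were not treated as pairs.

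The members, classes and lists were chosen with earlier results of these data known. The naming rule took up to 6 called rises and falls per comparison without overlap, up to 4 called members per class by smallest p or the 2 largest changes, members called in both comparisons with control, and members whose probe sets disagreed. The genes slc7a6os, slc35f2, slc25a3b, slc3a2a, slc37a4b, slc5a6b, slco1f1, slc40a1, the SLC16 and wide-spread carriers were named after their values were seen. Alternatives covered the variance prior, dim filters, scaling, groups in the fit, array weights, the sample number as block, the probe set per gene, a neural covariate, and left-out arrays.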

Additional observations from a re-analysis of the deposited data

Results flagged for a closer look

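The genes called in any comparison, or with a log2 difference from control of at least 1 in size, numbered 41. In the 2 groups of 4 arrays they gave 82 groups to test for a single array far from the rest. Of these groups 2 passed Dixon's 95% critical value of 0.829. Chance flags about 1 in 20 groups. The urea carrier slc14a2 was at 3.18 in control 1, where the other controls lay between 3.57 and 3.61, so that the gap took up 0.907 of the range. All 4 levels were below the 10th percentile of their arrays. The mitochondrial carrier slc25a55b was at 5.27 on azacytidine array 1, where the others lay between 5.02 and 5.06, and the gap took up 0.84 of the range. The difference of slc25a55b between mutants and azacytidine, 0.82 ± 0.21 (limma adjusted p = 0.0119), passed the test without that array and missed it without mutant 6, at 0.64.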

How the results depend on the processing

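Results were compared over 70 combinations of gene and comparison and up to 25 alternatives each. For combinations with dim levels, the bound at the 10th percentile was counted as well. In all, 1518 results were unchanged, 222 lost the call, 9 gained it, 5 moved and 3 reversed. Unchanged meant the same direction and side of the threshold. The bound gave no p-value, so there it meant a shift under 1 SD of the group subtracted, and the 5 that moved were larger shifts under the bound. The 1 call with azacytidine was 2 under array weights or the probe set of highest variance, and 0 with the replicate block, with the neural covariate and without controls 4 and 8. The 5 higher calls in mutants against controls were 3 with array medians subtracted, 3 with only the groups compared, 8 under array weights, 0 with the replicate block and 12 without controls 4 and 8. The 12 lower calls were 0 with the replicate block and 7 without controls 4 and 8. Against azacytidine, the 17 higher calls were 1 with the replicate block and 1 with the neural covariate, and the 16 lower calls were 3 and 5. Leaving out 1 array gave 1 to 1 higher and 0 to 0 lower calls with azacytidine, 2 to 7 and 4 to 13 in mutants against controls, and 9 to 20 and 10 to 18 against azacytidine. Of 51 called combinations 22 held in each such fit. Reversed were slc1a2b with azacytidine (0.25 with the neural covariate), slc32a1 with azacytidine (0.29 with that covariate) and slc5a12 in mutants against controls (-0.38 without controls 4 and 8). For the other changes the cause was not tested.

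The labels do not say whether the sample numbers pair the arrays. Deviations from group means of same-numbered arrays correlated at -0.21 to 0.03 over 4 pairs, within the range of differently numbered ones (-0.23 to 0.21). With so few pairs and small groups, these correlations cannot settle whether same-numbered arrays share a source. The fixed block leaves 2 residual degrees of freedom, and the numbers as a random block (consensus correlation 0.029) left every count as it was.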
